A study of Mus musculus with 9 samples.

Results

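The liver transcriptome of STAM mice that ate Atglistatin was compared with that of STAM mice that did not. The STAM mouse combines diabetes with a fatty liver, and was made here in male mice by 200 µg of streptozotocin, a toxin of insulin-producing cells, under the skin at 2 days of age and a high-fat diet from 4 weeks of age for 4 further weeks. In the STAM + Atglistatin group the same diet contained Atglistatin, an inhibitor of adipose triglyceride lipase (ATGL, the product of Pnpla2). Each group had 3 mice, so the comparison used 6 of the 9 libraries of the study, chosen by the titles of the samples. The other 3 came from male control mice on chow, which received neither streptozotocin nor Atglistatin, and are given beside the values. All 6 mice compared had the streptozotocin and the high-fat diet. Strain, genotype and the dose of Atglistatin were not given in the sources used here. STAM mice are numbered 1 to 3, STAM + Atglistatin mice 4 to 6 and chow mice 7 to 9, and values are listed in that order.

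ATGL takes the first fatty acid off stored triglyceride. Fatty acids freed by lipolysis can feed mitochondrial and peroxisomal oxidation and can act on PPARa, the nuclear receptor that drives genes of fatty acid oxidation. Sterol and fatty acid synthesis are driven by the SREBP transcription factors, which are held back by sterols. Liver genes that differ between the sexes in mice depend on the pattern of growth hormone secretion, and bile acid synthesis from cholesterol runs through hydroxylases that set how hydrophilic the bile acid pool is. By its title, the study asked about PPARa signalling and the hydrophilic bile acids when ATGL is inhibited.

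RNA of the left liver lobe was read with a QuantSeq 3' kit, which sequences the 3' ends of polyadenylated transcripts. Totals per library were 8283273 to 8619284 counts in STAM and 9022510 to 9911855 in STAM + Atglistatin. Levels are in CPM, the count of a gene relative to its library's total after TMM normalization. A gene passed, and is said to have risen or fallen, at a Benjamini-Hochberg adjusted p under 0.05 in edgeR's quasi-likelihood test, and changes are log2 fold changes of STAM + Atglistatin minus STAM, ± SE. The 10 hepatocyte markers were all detected, and their summed level was 57459 to 65582 CPM in STAM and 81382 to 82785 in STAM + Atglistatin (exact permutation p = 0.1, two-sided, the smallest that 3 against 3 can give). Alb alone held 26580 to 31323 and 45066 to 46411 CPM of these sums. Of the 10 markers, 1 rose and 1 fell, and 6 changes were above 0 and 4 below, with a median of 0.05. Mitochondrially encoded transcripts held 11.2 ± 0.303% of counts in STAM and 9.04 ± 0.600% with Atglistatin (SD, n = 3, exact permutation p = 0.1). Of 13 listed ones, 5 had from 0 to 3 counts in each library (mt-Co2, mt-Co3, mt-Atp6, mt-Atp8 and mt-Nd4l). The share therefore describes only part of the set. Genes with a count numbered 15705 to 16285 in STAM and 15314 to 15638 in the deeper treated libraries, without overlap (exact permutation p = 0.1, two-sided). The part of these differences in the results below was not tested, nor was that of depth. In whole tissue, fewer cells of a type and less RNA per cell cannot be told apart. Nothing in the labels says more of the separate origin of the mice than their numbers, so p-values measure the spread between these samples.

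Of 12660 genes tested, 132 rose and 94 fell with Atglistatin, which is 1.04% and 0.742% of them, or 1.79% in either direction. Each count of list members below is to be set beside these shares. The lists were chosen with earlier results of these data known, so such counts and shares are descriptions. Of the 226 genes that passed, 73 that rose and 50 that fell changed by at least 2-fold. The median change over all tested genes was -0.00, and 1285 genes had an unadjusted p under 0.05. The counts moved when a library was left out, in fits with fewer samples. They were 77 risen and 57 fallen without STAM replicate 2, and 73 and 58 without STAM replicate 1. Without STAM + Atglistatin replicate 5 they were 87 and 52, and 88 and 59 without replicate 4 of that group. Leaving out 1 of the 6 mice compared kept 127 to 172 of the 226 genes. Whether the smaller group or the mouse itself lowered the counts was not tested. The counts were 184 and 148 without chow replicate 7, a library that enters the estimate of spread. That library stood apart, at a root-mean-square log2 distance of 0.827 and 0.814 from chow replicates 8 and 9, which were 0.717 from each other, and 0.764 to 0.780 from the STAM libraries. The largest falls among genes of at least 8 CPM were Cfd, Mup9 and Mup11, and the largest rises were Cyp2a4, Sqle and Cdkn1a.

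**Figure D1:**
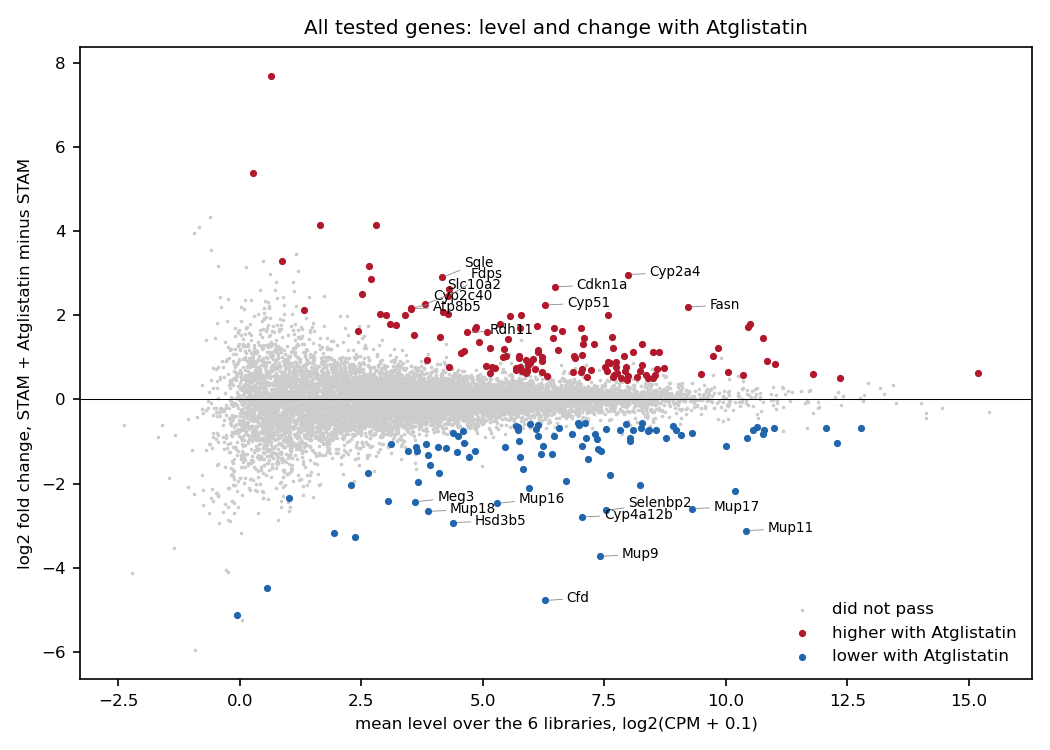
Log2 fold change of STAM + Atglistatin minus STAM (vertical axis) against the mean level over the 6 libraries as log2(CPM + 0.1) (horizontal axis), with 1 point for each of the 12660 tested genes. The 132 genes that rose are red, the 94 that fell are blue and the others grey; sterol and fatty acid synthesis genes such as Sqle, Cyp51 and Fasn lie above 2, and Cfd and Mup genes lie well below 0.

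Most genes of cholesterol synthesis rose. Of the 23 tested genes, 18 rose and 0 fell, against 1.04% of all tested genes that rose, and the median change was 1.45. The levels of 21 of the 23 in all 3 treated mice lay above those of all 3 STAM mice, against 8.58% of all tested genes that did so and 8.45% that lay below (17% in either direction). The count was 16 to 19 when any library was left out.

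At the start of the route, Hmgcs1 makes HMG-CoA. Hmgcs1 stood at 76, 59.6 and 82.8 CPM in STAM and 161, 172 and 264 with Atglistatin (1.45 ± 0.18, edgeR adjusted p = 9.13e-05). The groups did not overlap, and treated replicate 6 was the highest of the 6 mice. The chow mice had 393, 309 and 356 CPM, so that all treated mice lay below all chow mice.

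The mevalonate arm, which builds isoprenoid units, rose at Pmvk (1.66 ± 0.20), Mvd (2.08 ± 0.24), Idi1 (3.29 ± 0.65), Fdps (2.45 ± 0.22) and Fdft1 (1.59 ± 0.17). Fdps, farnesyl diphosphate synthase, had 5.09, 7.32 and 5.65 CPM in STAM and 25.4, 29.6 and 44 with Atglistatin (edgeR adjusted p = 3.56e-06). Every treated mouse was above every STAM mouse and below the chow mice, which had 56.9, 54 and 62.5. Idi1 was a low gene, with under 1 CPM in each STAM mouse, and it did not pass without STAM replicate 2 or in limma-voom (adjusted p 0.0636 to 0.0939), while its change was 4.03 without STAM replicate 1. Mvk, mevalonate kinase, was 1 of 5 members that did not pass (0.79 ± 0.30, edgeR adjusted p = 0.314), with 7.41, 5.08 and 6.97 CPM in STAM and 10.9, 16.3 and 6.38 with Atglistatin, so that treated replicate 6 lay among the STAM mice. Ggps1, which leads isoprenoids away from sterols, had -0.04 ± 0.25.

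From squalene onward, Sqle, squalene epoxidase, had the largest change of the members above 8 CPM (2.90 ± 0.30, edgeR adjusted p = 1.51e-05). Its levels were 4.87, 1.77 and 6.01 CPM in STAM and 29.6, 23.4 and 41.5 in treated mice, with 66.1, 86.8 and 72 in chow, so the 3 groups formed 3 separate ranges. Cyp51, which removes a methyl group from lanosterol, followed the same order with 25.5, 23.4 and 32.7, then 113, 125 and 148, and 222, 203 and 238 CPM in chow (2.24 ± 0.15, edgeR adjusted p = 1.16e-07). Akap9 lies across it on the opposite strand, and whether the counting used strand was not given. Msmo1 (1.61 ± 0.15) and Nsdhl (1.78 ± 0.18), which also act on methylated sterols, and Lss, Hsd17b7, Sc5d and Dhcr7, which close and finish the ring, rose by 0.80 to 1.78. Of the late enzymes, Tm7sf2 (1.07 ± 0.33, edgeR adjusted p = 0.156), Lbr (0.53 ± 0.21) and Ebp (0.11 ± 0.11) did not pass. In treated mice Tm7sf2 was highest in replicate 6, with 13.6, 13.5 and 32.1 CPM. Erg28, a scaffold of late sterol enzymes, rose by 0.56 ± 0.12 and lost its call without STAM replicate 1 or 2 or STAM + Atglistatin replicate 4 or 6 (adjusted p 0.0619 to 0.167).

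**Figure D2:**
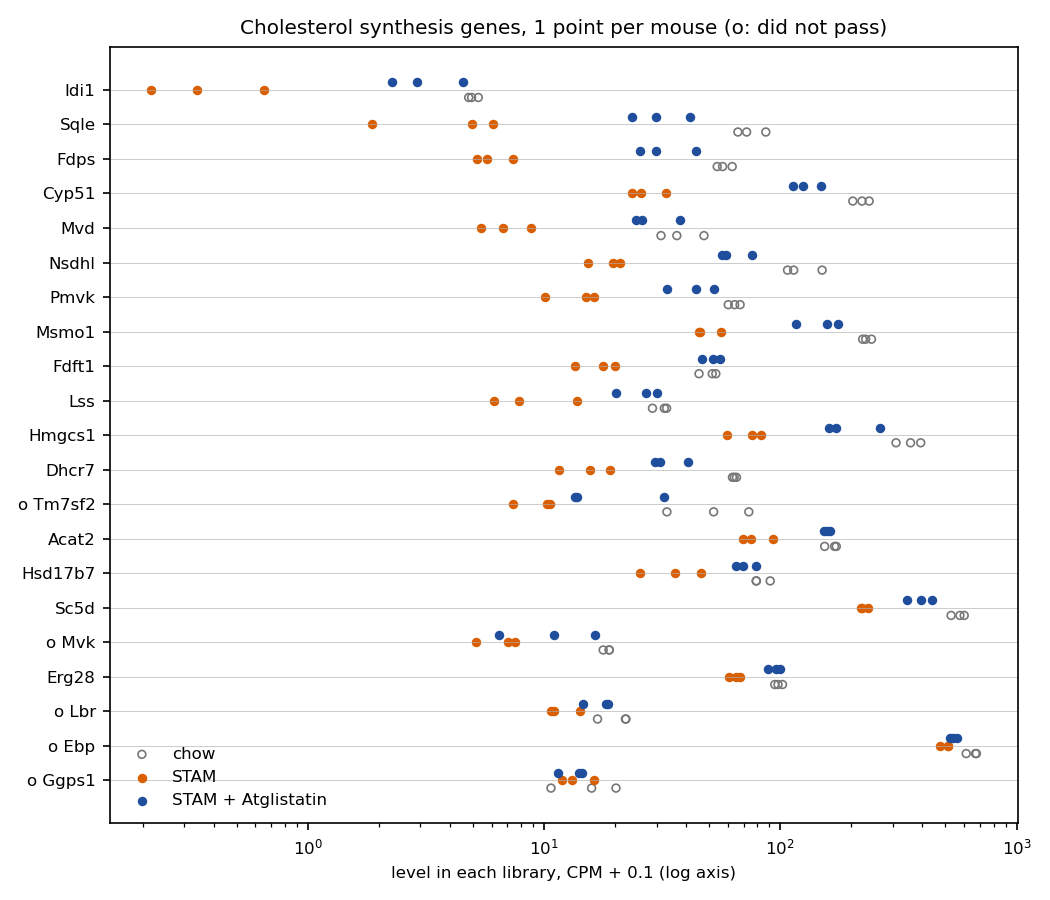
Level of 21 of the 23 tested cholesterol synthesis genes in each mouse as CPM + 0.1 on a log axis, with 1 point per mouse (orange STAM, blue STAM + Atglistatin, open grey chow), ordered by change; a leading o marks the 5 genes that did not pass. For Sqle, Fdps and Cyp51 the treated mice lie between the STAM and chow mice, and for Ggps1 all 3 groups overlap.

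Promoters of members were searched whether or not their genes passed. RefSeq windows of GRCm38.p6, from 250 bases before to 50 after the start of a transcript, were found for 18 of the 23 genes. CCAAT, the letters bound by NF-Y, which works beside SREBP, was searched on both strands and was present in 16 of the 18 (88.9%), against 4167 of 9698 tested genes with a window (43.0%), 58 of 104 genes that rose and 28 of 67 that fell. Acat2 and Erg28, which rose, had no CCAAT in their windows, and Mvk, Ggps1, Ebp, Lbr and Tm7sf2, which did not pass, had it. The exact letters TCACNCCAC, a form of the sterol regulatory element, were in 1 of the 18, Hmgcs1, against 141 of 9698 (1.45%). Variants of the element were not searched, so a window without a match may still hold such a variant. Matches of CCAAT and TCACNCCAC do not overlap each other in the 3 windows below, and a match is a description of the letters alone. The windows are those of Hmgcs1 (chr13:119690101-119690400, plus strand), the member that held both motifs, of Nsdhl (chrX:72918271-72918570, plus strand), with 4 CCAAT matches like Hmgcs1, and of Cyp51 (chr5:4104648-4104947, minus strand), the member with the smallest p. Each runs 5′ to 3′ on the gene's strand, and capitals mark CCAAT or its reverse complement ATTGG and, in Hmgcs1, the sterol element.
Hmgcs1: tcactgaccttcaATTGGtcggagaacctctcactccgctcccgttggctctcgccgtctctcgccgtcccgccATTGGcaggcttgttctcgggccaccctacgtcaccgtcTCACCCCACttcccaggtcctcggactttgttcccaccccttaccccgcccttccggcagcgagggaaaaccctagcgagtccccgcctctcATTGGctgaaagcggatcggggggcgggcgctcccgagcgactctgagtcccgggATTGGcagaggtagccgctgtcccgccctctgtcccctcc
Nsdhl: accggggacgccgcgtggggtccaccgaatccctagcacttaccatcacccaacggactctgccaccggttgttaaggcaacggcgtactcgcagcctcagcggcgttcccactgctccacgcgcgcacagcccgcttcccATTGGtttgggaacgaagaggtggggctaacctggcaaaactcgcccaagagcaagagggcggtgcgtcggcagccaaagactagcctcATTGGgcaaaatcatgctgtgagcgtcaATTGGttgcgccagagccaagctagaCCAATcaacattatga
Cyp51: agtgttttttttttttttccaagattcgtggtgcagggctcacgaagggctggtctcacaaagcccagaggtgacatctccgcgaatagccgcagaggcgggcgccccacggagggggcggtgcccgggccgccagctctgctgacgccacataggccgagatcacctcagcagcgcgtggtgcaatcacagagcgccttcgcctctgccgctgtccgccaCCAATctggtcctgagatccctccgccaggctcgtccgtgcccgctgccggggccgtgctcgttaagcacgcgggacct

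Genes that control sterols rose in part. Of 18 tested genes of the SREBP pathway and of sterol control, 5 rose and 0 fell, against 1.04% of all tested genes that rose. Their median was 0.27. Insig1, which holds the SREBP complex in the endoplasmic reticulum and is itself a target of SREBP, went from 41.8, 49.1 and 49.2 to 147, 109.5 and 129.7 CPM (1.46 ± 0.16, edgeR adjusted p = 2.45e-05), with no overlap. Insig2, a relative with its own control in liver, had 134, 149 and 146 and 80.6, 103 and 148 CPM, overlapping (-0.38 ± 0.17, 95% interval -0.74 to -0.01, edgeR adjusted p = 0.460), and passed only without STAM + Atglistatin replicate 6 (-0.64, adjusted p = 0.0414).

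Tmem97, which affects cholesterol transport, rose by 0.72 ± 0.13, and lost its call without STAM replicate 1 (adjusted p = 0.0570). Stard4, a sterol carrier, rose by 0.87 ± 0.20, and did not pass without any STAM mouse or STAM + Atglistatin replicate 4 or 5 (adjusted p 0.0703 to 0.177). The list's count fell to 2 without STAM replicate 1 and to 3 without STAM replicate 2 or 3 or STAM + Atglistatin replicate 4 or 5. The genes of the factors themselves did not pass: Srebf2 had 0.73 ± 0.24 (edgeR adjusted p = 0.204), with no overlap between 11.1, 13.9 and 12 and 16.6, 16.2 and 28.5 CPM, and Srebf1, which overlaps Rai1 on the other strand, had 0.38 ± 0.20 (edgeR adjusted p = 0.564), with overlap. Of 16 tested LXR targets and sterol exporters, 0 passed in edgeR, DESeq2 or limma-voom, and 0 were higher and 3 lower at an unadjusted p under 0.05.

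Genes of fatty acid synthesis also rose. Of 25 tested, 13 rose and 0 fell, against 1.04% of all tested genes that rose. The median was 0.72, and 24 of the 25 changes were positive. Fasn, fatty acid synthase (chromosome 11, 120805846 to 120824547, minus strand of GRCm38), had 176, 188 and 279 CPM in STAM, 987, 1172 and 778 with Atglistatin and 599, 1005 and 929.5 in chow (2.19 ± 0.21, edgeR adjusted p = 4.50e-06). All 3 treated mice were above all STAM mice and overlapped the chow mice. Scd1, which puts a double bond into saturated fatty acids (chromosome 19, 44394455 to 44407879, minus strand), had 482, 798 and 675 CPM in STAM and 1851, 2855 and 2018 with Atglistatin (1.78 ± 0.20, edgeR adjusted p = 3.43e-05). Its treated levels were 3.44 times those of STAM in the means but below those of chow, which were 4539.6, 6719 and 7336.

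Enzymes that supply its substrates rose too. Acly, which makes cytosolic acetyl-CoA from citrate, rose by 1.21 ± 0.16 (edgeR adjusted p = 0.000143), from 109.6, 106 and 155 to 253, 314 and 289 CPM with no overlap, and Me1, malic enzyme, a source of NADPH, by 1.31 ± 0.18. Of the carboxylases, Acacb rose by 1.37 ± 0.20 and Acaca by 0.91 ± 0.17, and Elovl6, an elongase, and Fads1, a desaturase, by 1.32 ± 0.18 and 1.12 ± 0.15. Elovl6 was also above chow, with 378, 485 and 469.8 CPM in treated mice, 172, 180.2 and 183 in STAM and 137, 244 and 263 in chow. Fads2 (0.48 ± 0.14), Elovl2 (0.15 ± 0.14), Scd2 (0.72) and Mlxipl, the gene of the glucose-sensing factor ChREBP (-0.20 ± 0.16), did not pass. The count was 8 without STAM replicate 1, where Acaca was among those lost (adjusted p = 0.0573), and 10 to 15 without any other library. Aacs, which makes acetoacetyl-CoA for lipid synthesis and is in no list, rose from 24.9, 19 and 20.4 to 49.4, 58.5 and 41.6 CPM (1.22 ± 0.19, edgeR adjusted p = 0.00125).

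In a list of 24 genes of triglyceride and phospholipid assembly, 2 rose and 1 fell, a larger share than the 1.79% of all tested genes that passed, with a median of 0.01. Gpam, the enzyme of the initial acylation of glycerol phosphate, rose from 179, 192 and 176 to 287, 329.8 and 307 CPM (0.76 ± 0.13, edgeR adjusted p = 0.00199), and the phosphatidylethanolamine methyltransferase Pemt rose by 0.53 ± 0.12. Gpcpd1, which cleaves glycerophosphocholine, fell by 1.31 ± 0.22 (edgeR adjusted p = 0.00256). Pemt lost its call without STAM replicate 1 or 2 or STAM + Atglistatin replicate 4 or 5 (adjusted p 0.0797 to 0.191). Gpam overlaps an annotated gene without a symbol.

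Pnpla2, the gene of the inhibited lipase (chromosome 7, 141455198 to 141460743, plus strand), had 79, 67.8 and 63.1 CPM in STAM and 62.4, 92 and 54.8 with Atglistatin. The groups overlapped, and the change was -0.00 ± 0.18 (95% interval -0.38 to 0.38, edgeR adjusted p = 0.998), which is a statement on the transcript and not on the enzyme's activity. Its activator Abhd5 (0.15, interval -0.19 to 0.49) and its inhibitor G0s2 (-0.05, interval -0.81 to 0.71) did not pass, nor did Mgll, which cleaves the last fatty acid (0.23, interval -0.06 to 0.52). Lipe, hormone-sensitive lipase, fell by 1.03 ± 0.21 (edgeR adjusted p = 0.00939), from 33.7, 37.9 and 26.8 to 17.5, 18.2 and 12.3 CPM with no overlap. Its call was lost without STAM replicate 1 or 2 or STAM + Atglistatin replicate 6 (adjusted p 0.0502 to 0.0826). Abhd5, G0s2 and Lipe each overlap another gene on the other strand. The carboxylesterase Ces3a fell by 0.73 ± 0.13 and Ces1g rose by 0.76 ± 0.16, making 1 higher and 2 lower of 18 lipolysis genes, also above the 1.79%. Ces1g lost its call without STAM replicate 1 or 2 or STAM + Atglistatin replicate 4 or 6 (adjusted p 0.0517 to 0.141).

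Cfd and Cidea, genes best known from fat tissue, were the genes that fell in the list of fatty acid uptake and PPARg targets, 2 of 20 tested, of which 2 others rose. Cfd, the complement factor adipsin (chromosome 10, 79890853 to 79892655, plus strand), had 145, 115 and 188 CPM in STAM, 4.72, 4.14 and 7.46 with Atglistatin and 5.25, 2.53 and 5.76 in chow. The treated mice overlapped the chow mice and lay far below all STAM mice (-4.78 ± 0.27, edgeR adjusted p = 1.77e-08). Cidea, which fuses lipid droplets, had 9.51, 6.26 and 11.9 CPM in STAM, 0.201, 1.35 and 1.30 in treated mice and 0.103, 0 and 0 in chow (-3.27 ± 0.61, edgeR adjusted p = 0.00516, and 0.0633 without STAM replicate 3). It overlaps another gene on the other strand.

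In the list of 13 adipocyte markers, 8 were tested, 2 of them passed, Cfd and Lipe, both lower, and the summed level was 4112 to 5939.5 CPM in STAM and 3251 to 4344.5 with Atglistatin, with overlap (exact permutation p = 0.2, two-sided). Most of that sum came from Car3 and Thrsp, which liver also expresses. Of the 8 tested markers, 7 had changes below 0 and 1 above, with a median of -0.55. Treated levels of 4 lay below all STAM mice and those of 1 above, against 8.45% and 8.58% of all tested genes. The 5 listed markers not tested were at or near 0 in STAM. Adipoq had 1, 0 and 2 counts, and Lep, Retn, Plin1 and Ucp1 had 0 in each STAM mouse. In treated mice Adipoq had 19, 0 and 6 counts, Retn 9, 0 and 0, Plin1 2, 0 and 0, and Ucp1 0, 0 and 1, while Lep had 0 in each. Of the droplet coat genes, Plin2 (0.16 ± 0.14), Plin5 (0.11 ± 0.17) and Cidec (-0.43 ± 0.50) did not pass, and Plin4 had -1.32 ± 0.42 with no overlap (edgeR adjusted p = 0.177). Of 14 droplet genes, 0 rose and 1 fell. Cd36, a fatty acid transporter, had 103, 92.3 and 87.5 and 93.4, 84.5 and 113 CPM (0.04 ± 0.18, edgeR adjusted p = 0.973), and both groups were above the 26.6, 17.5 and 14.6 CPM of chow. The acyl-CoA synthetases Acsl3 (1.02 ± 0.17) and Acsl5 (0.50 ± 0.12) rose, and Acsl5 lost its call without 6 single libraries (adjusted p 0.0553 to 0.217): chow replicate 9, STAM + Atglistatin replicates 4 and 5, and each STAM replicate. Acsl3 overlaps Utp14b on its own strand and Acsl5 overlaps Zdhhc6 on the other.

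Of 36 tested targets of PPARa, 1 rose and 1 fell, against 1.79% of all tested genes that passed, and the median was -0.05. Changes went both ways, from -1.71 to 1.69. Treated levels of 7 lay above all STAM mice and those of 8 below, against 8.58% and 8.45% of all tested genes. At an unadjusted p under 0.05, 4 were higher and 3 lower. Acot3, a peroxisomal thioesterase, rose from 17, 18.9 and 41.6 to 81, 94 and 73.9 CPM (1.69 ± 0.28, edgeR adjusted p = 0.00206); Acot3 is also on the list of genes higher in female liver and overlaps another gene on the other strand. The gene that fell was Cyp8b1, described with the bile acid genes. Ppara itself had 192, 203 and 209 and 167, 183 and 162 CPM, with no overlap but a small change (-0.24 ± 0.17, 95% interval -0.60 to 0.12, edgeR adjusted p = 0.746).

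Cyp4a14, Cyp4a10, Cpt1a and Vnn1 were above all chow mice in all 6 mice. Cyp4a14, a fatty acid hydroxylase, had 1156, 666 and 1141 CPM in STAM and 1535, 1511 and 1312 with Atglistatin, against 166, 154 and 40.9 in chow. Treated mice were the higher ones without overlap (0.56 ± 0.32, interval -0.11 to 1.23, edgeR adjusted p = 0.614), and the gene passed only with no filter on low counts (adjusted p = 0.00155). Cyp4a10 overlapped, with 1084, 836 and 1428 and 1278, 979.6 and 822 CPM (-0.12 ± 0.21, interval -0.56 to 0.31). Cpt1a, the gate of fatty acid entry into mitochondria, had -0.22 ± 0.12 (interval -0.46 to 0.02, edgeR adjusted p = 0.562), and Vnn1, a pantetheinase, had -0.15 ± 0.13. Fgf21, a hormone induced through PPARa, had 1.99, 0.827 and 0.361 CPM in STAM and 2.61, 2.49 and 4.97 in treated mice, without overlap, and its interval ran from -0.75 to 4.02.

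Of 25 mitochondrial fatty acid oxidation genes, 0 passed in edgeR, with a median of -0.06 and a range from -0.53 to 0.13; 0 were higher and 2 lower at an unadjusted p under 0.05, and 1 was lower in DESeq2 and in limma-voom. Of 7 ketone body genes 0 passed, with 0 higher and 2 lower unadjusted and 0 in DESeq2 and 1 lower in limma-voom. Among 34 peroxisomal genes, Nudt19 (0.71 ± 0.16) and Abcd2 (0.93 ± 0.23) rose and Nudt7 (-0.63 ± 0.15) fell, with a median of -0.04. Their adjusted p were 0.0316, 0.0459 and 0.0442 in edgeR, and each lost its call without at least 5 single libraries (adjusted p 0.0548 to 0.206 for Nudt19, 0.0557 to 0.292 for Abcd2 and 0.120 to 0.254 for Nudt7): STAM replicates 1 and 2 and STAM + Atglistatin replicates 4 and 5 for all 3, STAM replicate 3 for Nudt19 and Abcd2, and STAM + Atglistatin replicate 6 for Abcd2 and Nudt7. Abcd2 also did not pass without chow replicate 8. Of 60 genes of the TCA cycle and respiratory chain 0 passed in edgeR, DESeq2 and limma-voom, with 2 higher and 0 lower unadjusted. Of 13 listed mitochondrially encoded transcripts, 5 had too few counts to be tested. All changes of the 8 tested were below 0 (median -0.38), and mt-Nd5, which overlaps mt-Nd6, fell by 0.68 ± 0.12 (edgeR adjusted p = 0.00455).

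Single enzymes of bile acid synthesis changed. Of 18 tested genes, 2 rose and 2 fell, against 1.79% of all tested genes that passed, with a median of 0.15. Cyp7a1, the rate-limiting enzyme of the classical pathway, had 116, 83.2 and 219 CPM in STAM and 118, 142 and 266 with Atglistatin. The groups overlapped widely, with STAM replicate 3 and treated replicate 6 the highest (0.33 ± 0.29, 95% interval -0.29 to 0.95, edgeR adjusted p = 0.809). Cyp27a1, the enzyme that opens the alternative pathway, had 304, 349 and 349.9 and 408, 439.6 and 436 CPM, without overlap (0.36 ± 0.12, interval 0.09 to 0.62, edgeR adjusted p = 0.247).

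Cyp7b1, the oxysterol hydroxylase of the alternative pathway (chromosome 3, 18071950 to 18243338, minus strand), fell from 179, 176 and 145 to 41.4, 36.1 and 52.5 CPM. Its treated levels lay below all STAM mice and below the chow mice, which had 142, 217 and 225 (-1.94 ± 0.18, edgeR adjusted p = 4.26e-06). Cyp7b1 is also on the list of genes higher in male liver. Cyp8b1, the sterol 12-alpha-hydroxylase that directs synthesis to cholic acid (chromosome 9, 121914356 to 121916305, minus strand), had 469, 391 and 558 CPM in STAM, 213, 311 and 332 with Atglistatin and 274, 266 and 383 in chow. Treated mice lay below the STAM mice and overlapped the chow mice (-0.73 ± 0.18, edgeR adjusted p = 0.0441). The call was lost without STAM replicate 1 or 3 or STAM + Atglistatin replicate 4 or 5 (adjusted p 0.108 to 0.230), with changes from -0.80 to -0.56.

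Cyp2c70, which makes the hydrophilic muricholic acids of mice, rose from 125, 177 and 145 to 336, 246 and 246 CPM, and stood at 462, 659 and 548 in chow (0.89 ± 0.16, edgeR adjusted p = 0.00494). Treated mice were above all STAM mice and below all chow mice. Without STAM + Atglistatin replicate 4 or STAM replicate 1 it missed the threshold (adjusted p 0.0509 to 0.0615). Cyp39a1, which hydroxylates an oxysterol, rose from 1.77, 3.54 and 3.24 to 9.73, 9.01 and 16.2 CPM (2.03 ± 0.35, edgeR adjusted p = 0.00251), with no overlap. Bile acids themselves were not measured in these files.

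Among 20 tested genes of bile acid and bile lipid transport, 2 rose and 2 fell, against 1.79% of all tested genes that passed. Slc10a2, the sodium-dependent transporter that takes up bile acids in ileum and bile duct, rose from 2.32, 5.67 and 6.49 to 22.8, 17 and 29.2 CPM, with 50.9, 31.5 and 33.8 in chow (2.26 ± 0.31, edgeR adjusted p = 0.000336). Markers of cholangiocytes, the cells of the bile duct, summed to 147 to 167 CPM in STAM and 160 to 175 in treated mice, with overlap. Of 7 tested, 0 passed, 5 changes were above 0 and 2 below (median 0.11, highest 1.65), and 1 was higher at an unadjusted p under 0.05. Of the 3 not tested, Cftr had 1, 0 and 1 counts in STAM and 3, 10 and 5 in treated mice. Tspan8 had 3, 5 and 3 and then 7, 7 and 14, and Cldn7 overlapped. Slco1a1, an organic anion uptake transporter that is higher in male liver, fell from 249.6, 254 and 189.9 to 84.2, 100.3 and 122 CPM (-1.18 ± 0.21, edgeR adjusted p = 0.00383), with no overlap, and Slc22a7, of the organic anion transporters, fell by 1.33 ± 0.23. Ephx1, microsomal epoxide hydrolase, rose by 0.73 ± 0.15 and lost its call without STAM replicate 1 or 2 or STAM + Atglistatin replicate 4 or 5 (adjusted p 0.0856 to 0.138). Abcb11, the bile salt export pump, had 174, 194 and 164 and 269, 235 and 222 CPM without overlap (0.45 ± 0.12, edgeR adjusted p = 0.0945), and passed in DESeq2 (adjusted p = 0.0226), in limma-voom (0.0351) and without chow replicate 7 (0.0363). Slc10a1, the main uptake transporter (0.09 ± 0.19), the bile acid receptor Nr1h4 (-0.11 ± 0.17) and its target Nr0b2 (-0.01 ± 0.25) did not pass. Of 14 regulators of bile acids 0 passed in edgeR, DESeq2 or limma-voom, with 1 higher and 0 lower unadjusted.

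**Figure D3:**
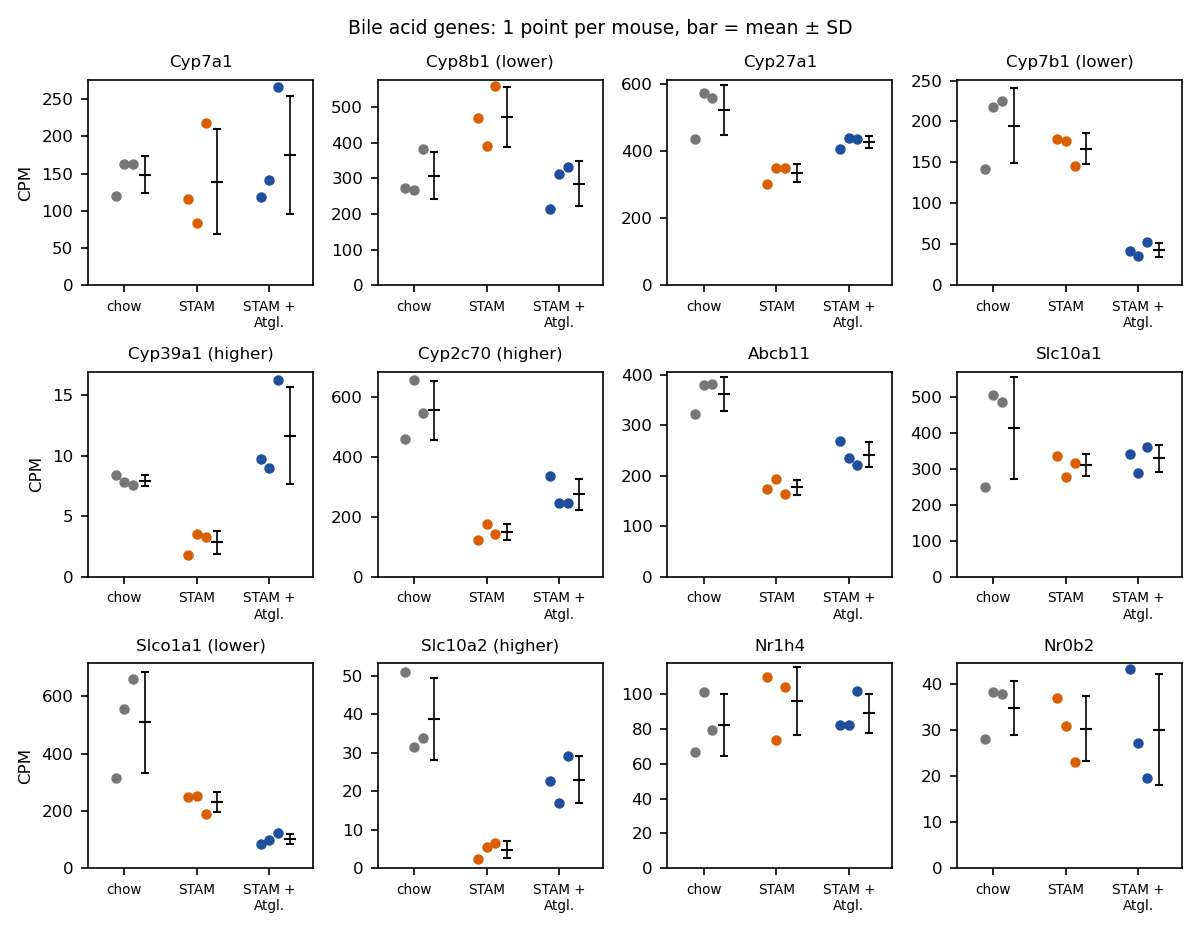
Level in CPM of 12 bile acid genes, with 1 point per mouse for chow (grey), STAM (orange) and STAM + Atglistatin (blue) and the mean ± SD of each group of 3 beside the points; higher or lower in a title means that the gene passed. Cyp7b1 and Slco1a1 are lowest in the treated mice, Cyp2c70, Abcb11 and Slc10a2 lie between STAM and chow in them, and Cyp7a1 overlaps in all 3 groups.

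Many genes that differ between male and female liver changed. Of 26 tested genes with a known male bias in liver, 17 fell and 1 rose, against 0.742% and 1.04% of all tested genes, with a median of -1.61. Of 23 tested genes known to be higher in female liver, 10 rose and 0 fell, with a median of 1.0. All mice were male. The summed level of the male list was 10502 to 11720 CPM in STAM and 5609 to 6321 with Atglistatin. The first count was 13 to 19 and the second 4 to 12 when any library was left out, with 4 without STAM replicate 1, 5 without STAM replicate 2 or STAM + Atglistatin replicate 5, and 6 without STAM + Atglistatin replicate 4.

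Selenbp2, a selenium-binding protein (chromosome 3, 94693556 to 94704413, plus strand), had 284, 399 and 277 CPM in STAM and 56.1, 43.1 and 55.2 with Atglistatin, with 531, 480.03 and 577 in chow (-2.64 ± 0.16, edgeR adjusted p = 3.19e-08). The treated mice lay far below both other groups. The fatty acid hydroxylases Cyp4a12a and Cyp4a12b, near copies of each other, fell by 2.03 ± 0.17 and 2.79 ± 0.18, and Cyp4a12b went from 236, 240.1 and 215 to 42.4, 29.7 and 27.6 CPM. Cyp2d9, a steroid hydroxylase, fell by 1.11 ± 0.17, Elovl3 by 1.66 ± 0.26, and Egfr, the EGF receptor, by 1.0 ± 0.16. Hsd3b5, a steroid-metabolising enzyme that overlaps Zfp697 on the other strand, had 46.9, 34.6 and 29.3 CPM in STAM and 10.3, 0.933 and 3.14 in treated mice, where replicate 4 was the highest. Its change was -2.93 ± 0.46, and -4.19 without that mouse. Ces2e, a carboxylesterase, was the member that rose (0.73 ± 0.12, edgeR adjusted p = 0.00159), and Cyp2f2 (-0.11) and Ugt2b1 (-0.44) did not pass. The treatment of reads shared by near copies was not given, which touches the Cyp4a, Cyp2a, Mup, Gstm, Saa and Serpina1 genes.

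Of the genes higher in female liver, Sult2a7, a sulfotransferase, went from 16, 13.2 and 11.7 to 45, 39.2 and 49.7 CPM (1.71 ± 0.24, edgeR adjusted p = 0.000455). All treated mice were above all STAM mice, and the chow mice had 0.103, 0.964 and 0.591 CPM. Cyp2a4, a steroid hydroxylase with a near copy in Cyp2a5, went from 51.8, 62.2 and 58 to 549.6, 462 and 332 CPM (2.97 ± 0.68, edgeR adjusted p = 0.0299). Its groups lay far apart, but its chow levels were 31.1, 0 and 0.296, a spread that enters the fit, and it did not pass in DESeq2 (adjusted p = 0.661) or without STAM replicate 1, 2 or 3 or STAM + Atglistatin replicate 4 or 5 (0.117 to 0.203). Prlr, the prolactin receptor, rose by 1.0 ± 0.19, and did not pass without STAM replicate 1 or 2 (adjusted p 0.0572 to 0.0687). Cux2, a female-specific transcription factor gene, had 0.995, 0 and 0.481 and 5.92, 1.66 and 0.541 CPM and did not pass (2.42 ± 1.03, edgeR adjusted p = 0.403).

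All 13 tested major urinary protein genes, which encode pheromone carriers made at high level by male liver, had changes below 0, and 11 of the 13 fell, with a median of -2.34. Their summed level was 12181 to 14541 CPM in STAM and 4826 to 5431 with Atglistatin. Mup9 (chromosome 4, 60418046 to 60421952, minus strand) fell from 272, 352 and 325 to 24.1, 21.1 and 26.3 CPM (-3.73 ± 0.31, edgeR adjusted p = 1.09e-06), and Mup11 from 2372, 2528 and 2410 to 289, 212 and 341 (-3.12 ± 0.23, edgeR adjusted p = 2.22e-07). For both, the treated mice lay below all STAM and all chow mice. The smallest change of the 11 was that of Mup20, the male pheromone darcin (-0.82 ± 0.13), from 1866, 2249.7 and 2558 to 1312, 1217 and 1242 CPM. The members that did not pass, Mup1 and Mup2, were under 4 CPM in each of the 6 mice. The other 9 listed genes had too few counts to be tested.

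Of 18 tested components of growth hormone signalling, Prlr alone passed, and the median was -0.24, with 13 changes below 0. The receptor Ghr had 462, 373 and 428 CPM in STAM and 266, 307 and 348 with Atglistatin, without overlap (-0.46 ± 0.16, edgeR adjusted p = 0.243). Igf1, a growth hormone target, had -0.26 ± 0.11 (95% interval -0.50 to -0.02, edgeR adjusted p = 0.410), and Socs2 had -0.68 ± 0.29. Stat5b, the mediator of the growth hormone pulse, had -0.15 ± 0.19, and Bcl6, a repressor that is higher in male liver, went from 36, 52 and 53.8 to 6.72, 12.1 and 29 CPM without overlap and did not pass (-1.57 ± 0.45, edgeR adjusted p = 0.110). Srd5a1, a steroid reductase in none of the lists and named after its values were seen, fell by 0.86 ± 0.16 (edgeR adjusted p = 0.00541).

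**Figure D4:**
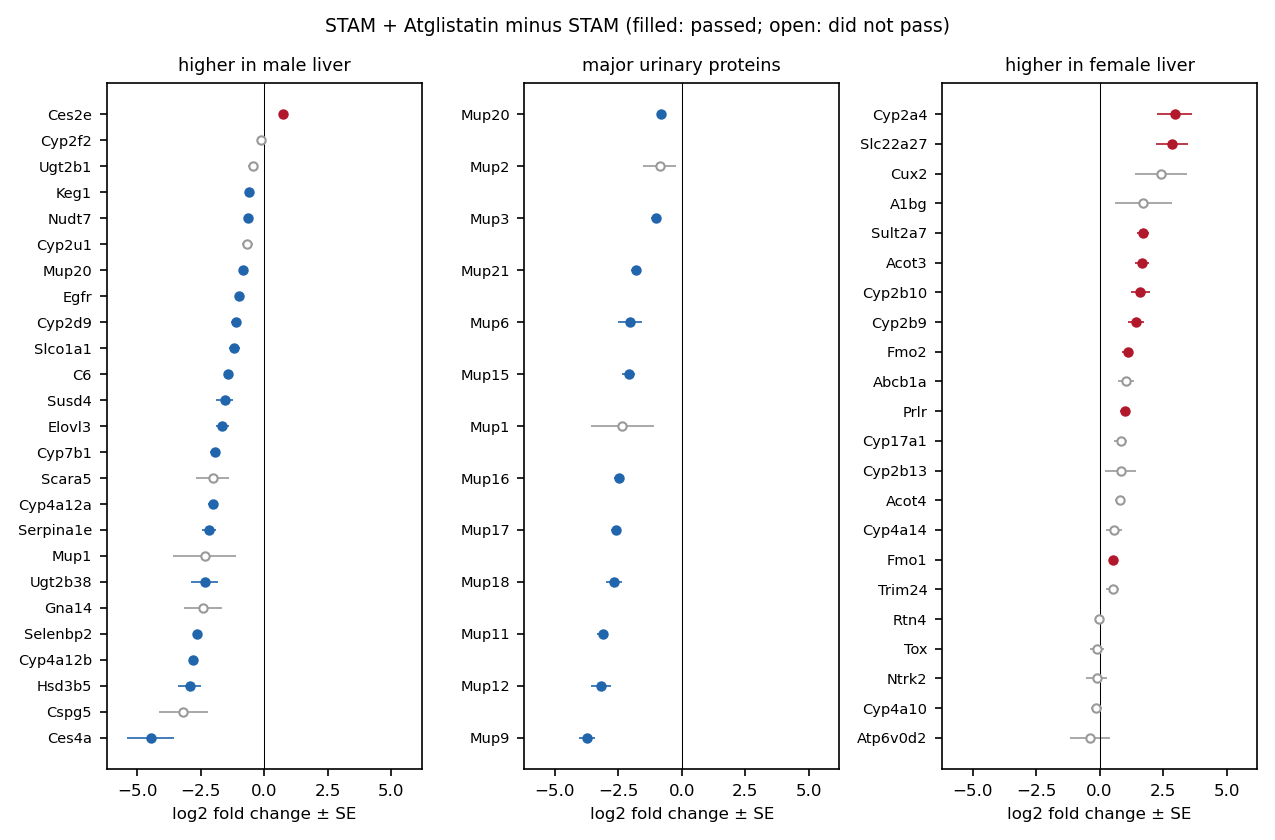
Log2 fold change ± SE of STAM + Atglistatin minus STAM for 25 of the 26 tested male-biased liver genes (left), the 13 major urinary proteins (middle) and 22 of the 23 female-biased ones (right), filled where the gene passed (red higher, blue lower). The left and middle panels lie almost wholly below 0, with Ces2e the 1 filled point above it, and the right panel has its filled points above 0.

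Enzymes of drug metabolism rose in number. Of 42 tested genes of the CYP1, CYP2 and CYP3 families, 11 rose and 1 fell, against 1.04% and 0.742% of all tested genes. Their median was 0.38. Cyp1a2, which oxidises caffeine and aromatic amines (chromosome 9, 57676937 to 57683703, minus strand), went from 637, 652 and 664 to 2518, 2012 and 1904 CPM (1.72 ± 0.17, edgeR adjusted p = 5.61e-06). All treated mice were above STAM and chow, which had 826, 1425 and 1262. Its relative Cyp1a1 had 0.332, 0.945 and 0.120 and 3.01, 3.21 and 5.62 CPM without overlap and did not pass (3.05 ± 0.83, edgeR adjusted p = 0.0864). Cyp2c68 rose from 63.5, 59.4 and 63.3 to 203, 201 and 194 CPM (1.68 ± 0.12, edgeR adjusted p = 1.74e-07), Cyp2a5 by 1.22 ± 0.13 and Cyp2c29 by 1.11 ± 0.20. Cyp2c29 overlaps Cyp2c53-ps, and in chow it stood higher still, at 1219.7, 1961 and 1926 CPM. Cyp2b10, a target of the xenobiotic receptor CAR, rose from 1.11, 1.89 and 4.93 to 9.53, 7.98 and 6.59 CPM (1.61 ± 0.38), and lost its call in the fit to 6 libraries and without STAM replicate 1 or 2 or STAM + Atglistatin replicate 4 or 5 (adjusted p 0.0740 to 0.198), with 2.42 without STAM replicate 3. Cyp3a11 (0.44 ± 0.20) and Cyp2e1 (-0.32) did not pass. Leaving out STAM replicate 1 gave 6 risen members, and leaving out STAM replicate 2 or STAM + Atglistatin replicate 4 gave 7.

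Of 41 tested conjugating enzymes, 11 rose and 1 fell, against 1.04% and 0.742% of all tested genes, with a median of 0.26. Most were glutathione transferases: Gstm1 went from 865, 862 and 1071 to 2966, 2635 and 2108 CPM (1.46 ± 0.16, edgeR adjusted p = 2.32e-05), Gstm2 rose by 1.17 ± 0.16, Gstt3 by 1.69 ± 0.29 and Gsta4 by 1.04 ± 0.17. The groups did not overlap for Gstm1, and the treated mice overlapped the chow mice, which had 2328, 1697 and 1556. Ugt2b38, a glucuronosyltransferase also listed as higher in male liver, fell by 2.35 ± 0.51 and was lost in limma-voom, in the fit to 6 libraries and without STAM replicate 1 or 2 or STAM + Atglistatin replicate 4 or 6 (adjusted p 0.0562 to 0.305). The count of risen members was 6 without STAM + Atglistatin replicate 4 and 7 without replicate 5 of that group or STAM replicate 1 or 2.

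Of 26 genes of the oxidative stress factor NRF2 and of glutathione synthesis, 9 rose and 0 fell, against 1.04% of all tested genes that rose. The median was 0.46. Gstm1, Gstm3, Ephx1 and Me1 are among the 9 and are shared with other lists. Nfe2l2, the gene of NRF2, rose from 105, 98.1 and 100 to 144, 162 and 169.8 CPM (0.65 ± 0.13, edgeR adjusted p = 0.00897), and not without STAM replicate 2 or STAM + Atglistatin replicate 5 (adjusted p 0.0528 to 0.0710). Nqo1, a quinone reductase, rose by 1.53 ± 0.36, and lost its call without STAM replicate 1 or 2 or any treated mouse (adjusted p 0.0760 to 0.202). Hmox1 (-0.52 ± 0.34), Gclm (0.03), Txnrd1 (0.27) and Srxn1 (0.46), also known targets, did not pass. Leaving out STAM replicate 2 gave 2 risen members, STAM replicate 1 or STAM + Atglistatin replicate 5 gave 3, replicate 4 of that group gave 4 and STAM replicate 3 gave 5. Cbr1, a carbonyl reductase in none of the lists, rose from 97, 106 and 118 to 330.3, 309.8 and 258 CPM (1.48 ± 0.15, edgeR adjusted p = 7.40e-06), above all STAM and chow mice.

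Genes of p53 and growth arrest rose in part, 4 of 19 tested with 1 lower and a median of 0.68. Of all tested genes, 1.04% rose and 0.742% fell. Phlda3, an inhibitor of AKT (chromosome 1, 135766119 to 135769136, plus strand), went from 1.33, 1.06 and 1.32 to 12.2, 13.3 and 8.22 CPM, with 0.823, 0.603 and 0.148 in chow (3.17 ± 0.46, edgeR adjusted p = 0.000542). Ccng1, cyclin G, went from 43.5, 44.4 and 40.7 to 111, 79.3 and 100.3 (1.18 ± 0.15, edgeR adjusted p = 0.000129). For both, the treated mice lay above all other mice of the study. Cdkn1a, the cell cycle inhibitor p21, had 22.1, 20.4 and 30.04 CPM in STAM and 169, 154 and 139.9 in treated mice (2.67 ± 0.56, edgeR adjusted p = 0.0150); its chow levels were 50.4, 2.89 and 6.35, and it did not pass in DESeq2 or without any STAM mouse or STAM + Atglistatin replicate 4 or 5 (adjusted p 0.0508 to 0.123). Cdkn1a overlaps another gene on the other strand. Trp53inp1 rose by 0.78 ± 0.19 and lost its call without any 1 of the 6 libraries and with library totals (adjusted p 0.0506 to 0.241). Mdm2 (0.85 ± 0.21, edgeR adjusted p = 0.0519) and Bax (0.57 ± 0.29) did not pass. Plk3, a stress kinase that overlaps Tctex1d4 on the other strand, fell by 1.16 ± 0.26, and did not pass without STAM replicate 2 or 3 or any treated mouse (adjusted p 0.0525 to 0.191). The p53 list had 2 risen members without any STAM mouse or STAM + Atglistatin replicate 4 or 5. Of 38 cell cycle genes, Ccnd1, cyclin D1, alone passed, from 94, 102 and 71.1 to 228, 274 and 162 CPM (1.31 ± 0.23, edgeR adjusted p = 0.00298), without overlap, and it overlaps LTO1 on the other strand.

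Of 58 genes of amino acid breakdown and the urea cycle, 7 fell and 0 rose, against 0.742% of all tested genes that fell, and 49 changes were below 0 (median -0.20). Bhmt, which remethylates homocysteine, fell from 1740.4, 1726 and 1939 to 960.2, 832 and 1070.3 CPM (-0.92 ± 0.13, edgeR adjusted p = 0.000309), and Sds, serine dehydratase, from 234, 211 and 202 to 98, 120.3 and 117 (-0.95 ± 0.14, edgeR adjusted p = 0.000500). For both genes all treated mice were below all STAM and chow mice. Slc7a2, a carrier of basic amino acids, fell by 0.92 ± 0.12, Ppm1k, the phosphatase that activates branched-chain keto acid breakdown, by 0.92 ± 0.14 and Oat, ornithine aminotransferase, by 0.91 ± 0.16. Oat shares its strand with an Fgfr2 entry and Sds overlaps Plbd2 on the other. The urea cycle genes Cps1 (-0.21 ± 0.13), Ass1 (0.04) and Arg1 (0.08) did not pass. None of the 7 changed by 2-fold.

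Glucose genes were mixed. Of 32 tested, 4 rose and 0 fell, against 1.04% of all tested genes that rose, with a median of 0.03. Gpi1, Gbe1 and Pklr rose by 0.70, 0.59 and 0.71, and leaving out 1 library gave a count of 0 without STAM replicate 1 or 2 or STAM + Atglistatin replicate 5, 1 without replicate 4 or 6 of that group and 6 without chow replicate 7. Pck1 and G6pc, of gluconeogenesis, were lower without overlap: Pck1 had 3106, 2690.3 and 2989.8 and 1549, 1617 and 2009.8 CPM (-0.76 ± 0.21, edgeR adjusted p = 0.0945) and G6pc 633, 620.2 and 673 and 346, 450.3 and 477 (-0.60 ± 0.32, edgeR adjusted p = 0.581). Neither passed in the fit to 9 libraries, and both passed without chow replicate 7 (adjusted p = 0.00132 and 0.00451), in the fit to 6 libraries (2.90e-04 and 0.00687) and with no filter on low counts (1.38e-07 and 4.31e-04). Pck1 also passed in limma-voom (0.0130) and without chow replicate 9 (0.00720). Of 21 insulin signalling genes 0 passed in edgeR, DESeq2 or limma-voom, with 1 higher and 2 lower unadjusted.

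Among 59 plasma protein, complement and coagulation genes, 7 fell and 3 rose, against 0.742% and 1.04% of all tested genes, with a median of -0.04. Alb, albumin, rose from 26580, 30523 and 31323 to 45066, 45704 and 46411 CPM, with 56179, 62075 and 62845 in chow (0.63 ± 0.10, edgeR adjusted p = 0.00159), and Mbl2, mannose-binding lectin, from 531, 540.1 and 628 to 1132, 1099 and 1215 (1.02 ± 0.12, edgeR adjusted p = 4.37e-05). Treated mice lay between STAM and chow for Alb and above both for Mbl2. The terminal complement genes C6, C8a, C8b and C9 fell by 0.72 to 1.41; C6 went from 218, 234 and 172 to 66.6, 83.2 and 85.2 CPM (-1.41 ± 0.15, edgeR adjusted p = 1.81e-05). Serpina1e, an alpha-antitrypsin gene listed with male liver genes too, fell from 1544, 2197 and 1969 to 435, 196 and 628 (-2.18 ± 0.28, edgeR adjusted p = 0.000143), as did its near copy Serpina1c, added here after its values were seen, from 4250.2, 4722 and 6947 to 3821, 3222 and 2833 (-0.69 ± 0.17, edgeR adjusted p = 0.0390). Serpina1c lost its call without STAM replicate 2 or 3 or STAM + Atglistatin replicate 5 or 6 (adjusted p 0.0666 to 0.232). The other copies, Serpina1a (-0.23 ± 0.12), Serpina1b (-0.21 ± 0.14) and Serpina1d (-0.05 ± 0.14), did not pass, and reads shared between the copies make their separate values uncertain. The count of fallen members was 3 without STAM + Atglistatin replicate 5 and 4 without STAM replicate 2, where C9 and C8b were among those lost (adjusted p 0.0759 to 0.0988 and 0.0528 to 0.0734). Apob, of lipoprotein assembly, fell from 833, 850.1 and 726 to 436, 433 and 523 CPM (-0.79 ± 0.14, edgeR adjusted p = 0.00467). Of the acute phase genes, Saa1 and Saa2 fell by 1.22 ± 0.24 and 1.29 ± 0.25, with STAM replicate 2 the highest mouse of all, and without it the changes were -0.84 and -0.92 (adjusted p = 0.0734 and 0.0795), nor did they pass without STAM + Atglistatin replicate 4 or 5 (0.0520 to 0.0908). Hamp2, a gene of the hepcidin family, rose from 16.3, 13.3 and 36.3 to 74.2, 135 and 56.1 CPM (2.01 ± 0.35, edgeR adjusted p = 0.00307).

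Genes of scarring and inflammation did not pass. Of 40 fibrosis and stellate cell genes 0 passed in edgeR, with 0 higher and 3 lower unadjusted, 1 lower in DESeq2 and 0 in limma-voom, and the median was -0.16. Col1a1, a chain of collagen I, had 31.8, 49.6 and 20.7 CPM in STAM, 13.2, 20.00 and 16.4 with Atglistatin and 70.5, 13.7 and 23.3 in chow. The treated mice lay below the STAM mice, and chow replicate 7 was the highest of all (-1.04 ± 0.42, 95% interval -1.93 to -0.14, edgeR adjusted p = 0.368). The gene passed without that chow library (adjusted p = 0.0366), in the fit to 6 libraries (0.0267) and with no filter (2.65e-05). Of 29 inflammation genes 0 passed, with 2 higher and 1 lower unadjusted and 1 lower in DESeq2; Ccl2 had 2.76, 0.472 and 0.601 and 2.61, 1.55 and 0.216 CPM, and Tnf had 1 count over the 6 libraries, in STAM replicate 3, and was not tested. Of 40 interferon response genes 0 passed in edgeR, DESeq2 or limma-voom, with 0 higher and 7 lower unadjusted and 33 changes below 0 (median -0.23).

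Markers of other liver cells gave 0 passing genes in edgeR for Kupffer cells (14 tested), recruited macrophages (13), stellate cells (12), sinusoidal endothelium (14), T and NK cells (3), B cells (5), neutrophils (3), cholangiocytes (7) and blood (5); in DESeq2 1 Kupffer marker and in limma-voom 1 endothelial marker was higher. Adgre1, a macrophage surface receptor, had -0.22 ± 0.21 (interval -0.65 to 0.22). Endothelial markers summed to 495 to 519 CPM in STAM and 556 to 600 in treated mice, without overlap (exact permutation p = 0.1, two-sided), and those of Kupffer cells to 606 to 715 and 610 to 795, with overlap.

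**Figure D5:**
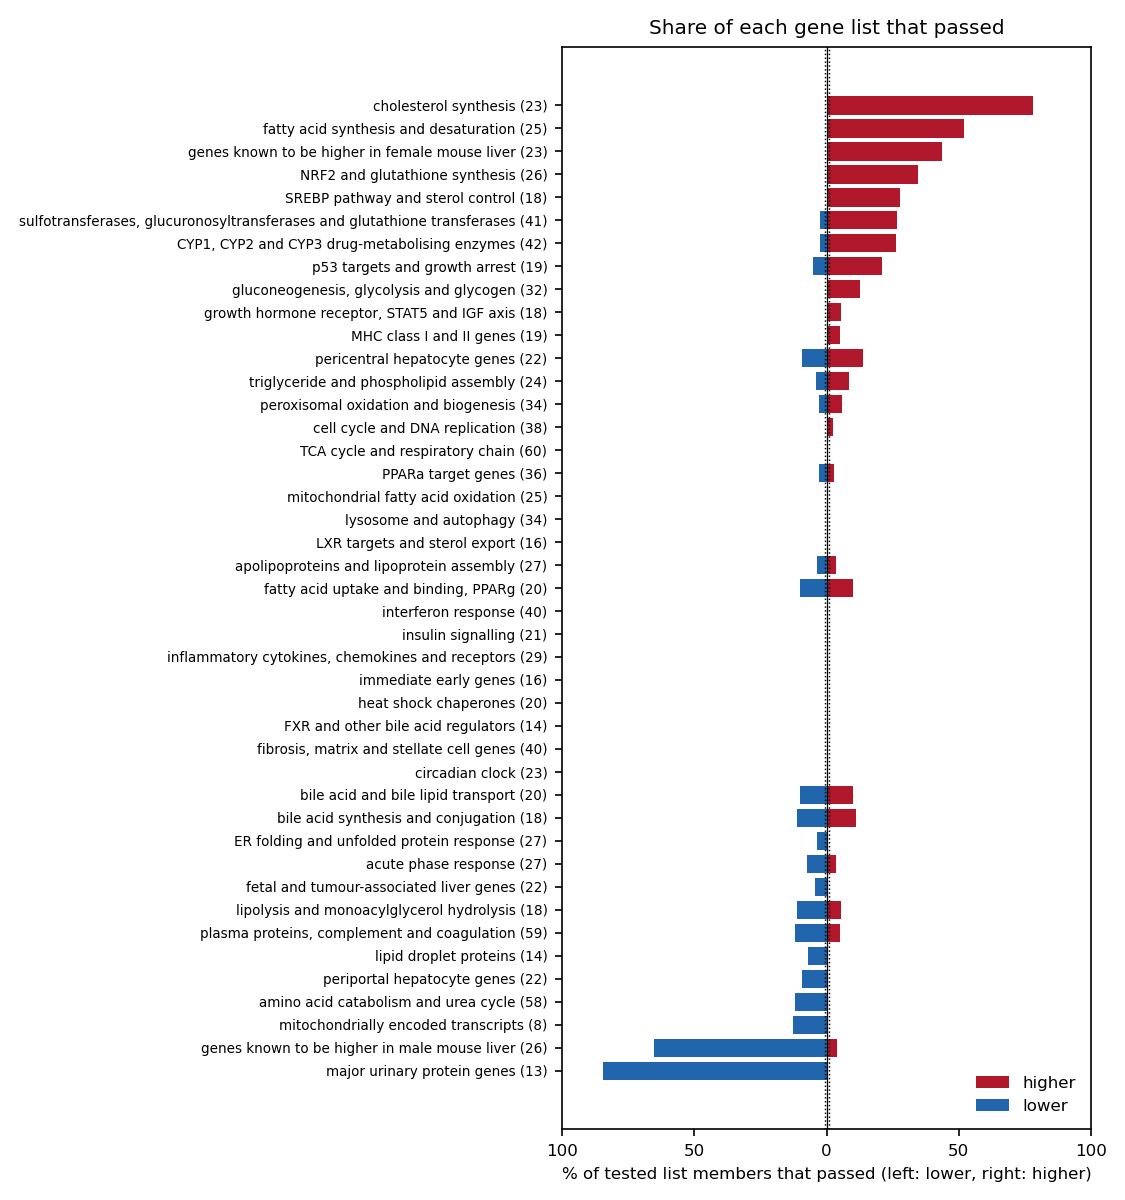
Share of the tested members of each gene list drawn (number tested in brackets) that fell (blue, to the left) or rose (red, to the right) with Atglistatin, in percent, with dotted lines at the shares of all tested genes, 0.742% and 1.04%. The lists of cell type markers and of ketone body synthesis are not drawn. Cholesterol synthesis has the largest share that rose, 18 of 23, and the major urinary proteins the largest that fell, 11 of 13, while the lists of mitochondrial fatty acid oxidation, fibrosis, inflammation and interferon response have none.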

How the data were processed

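Raw read counts per gene for 9 libraries were taken from the table the authors deposited. Per the submitters' processing notes, reads were aligned with STAR to GRCm38; versions, counting tool, annotation, strand use and multi-mapped reads were not given in the sources used here. Groups came from the sample titles, since in the chow and STAM samples the label for treatment goes against them. The authors' fold changes and p-values were not used. Of 55401 genes, 20630 had a count; 7 ribosomal RNA entries (0.260 to 0.529% of counts) were left out. Library totals were 7409090 to 9911855 counts. Pairs of replicates differed beyond sampling noise.

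The test was that of edgeR 4.0.16 under R 4.3.3 (filterByExpr, TMM, 1 quasi-likelihood fit of group means to 9 libraries, Benjamini-Hochberg adjustment over 12660 genes, threshold 0.05). The scripts were tested on simulated data. SE is the log2 fold change over the root of F, and 95% intervals use the t quantile of each gene's total degrees of freedom. The members, the 56 gene lists and the tests were chosen with earlier results of these data known. Named genes were the 10 with the largest changes in each direction (at least 8 CPM, no overlap), the 3 with the smallest p of each list and direction, 6 in each direction in no list, and fixed genes of lipolysis, PPARa, bile acids and inflammation; other names were chosen after their values were seen. Positions are from GENCODE M21 (GRCm38), promoters from RefSeq. Alternatives were DESeq2 1.42.0 and its size factors, library totals, no low-count filter, limma 3.58.1 voom with sample weights, the 6 libraries alone, a minimum log2 fold change of 1, and each library left out. Some members of the lists are counted but not reported here by name.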

Additional observations from a re-analysis of the deposited data

How the results depend on the processing

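Of 126 named genes 101 passed, and 69 of the 101 passed under all of the 15 alternatives that give a gene an adjusted p; none of the 101 turned in sign. The counts of genes higher and lower were 203 and 189 with no low-count filter, 73 and 50 at a log2 fold change of at least 1, and 73 to 184 and 52 to 148 when 1 library was left out; 145 were lower in the fit to 6 libraries. DESeq2 and limma-voom kept 219 and 215 of the 226 genes, and leaving out 1 library kept 127 to 226. At a log2 fold change of at least 1, the counts were 2 for the SREBP list, 6 for conjugating enzymes and 4 for NRF2 (higher), and 0 for amino acid breakdown and 2 for plasma proteins (lower). Leaving out 1 library gave 2 to 5 for the SREBP list, 8 to 15 for fatty acid synthesis, 4 to 12 for female-biased genes, 6 to 14 for CYP enzymes, 6 to 13 for conjugating enzymes, 2 to 11 for NRF2 and 3 to 8 for plasma proteins lower. Genes higher in DESeq2 and limma-voom numbered 2 and 3 of the PPARa targets, 4 and 6 of bile acid transport and 3 and 6 of the glucose list. The cause of these moves was not tested, beyond the fewer samples of each such fit.

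Of the named genes that did not pass, 6 turned in sign. Without STAM + Atglistatin replicate 4, Ccl2 was -0.54, G0s2 0.13 and Pnpla2 0.06. Without replicate 5, Nr0b2 was 0.06. Without replicate 6, Cyp4a10 was 0.02, Cyp7a1 -0.10, G0s2 0.0086, Nr0b2 0.22 and Pnpla2 0.14. Without STAM replicate 1, Nr0b2 was 0.16 and Pnpla2 0.09. Without STAM replicate 2, Ccl2 was -0.20 and Nr0b2 0.0030. Without STAM replicate 3, Ccl2 was -0.15, Cyp4a10 0.10 and G0s2 0.08. When any 1 library was left out, the changes ranged from -0.54 to 1.42 for Ccl2, -0.32 to 0.10 for Cyp4a10, -0.10 to 0.81 for Cyp7a1, -0.34 to 0.13 for G0s2, -0.38 to 0.22 for Nr0b2 and -0.26 to 0.14 for Pnpla2. No paired analysis was possible because the groups share no replicate numbers. With 3 mice a group, changes of low genes such as Idi1 and Cidea rest on few counts.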

Other observations

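Of the genes in none of the lists, Rdh11, a retinol dehydrogenase, rose from 15, 10.6 and 12.6 CPM in STAM to 33.6, 39.4 and 42.6 with Atglistatin, below the 88.1, 104 and 106 of chow (1.59 ± 0.17, edgeR adjusted p = 1.75e-05), and Rdh16f2 rose from 29.5, 27 and 28 to 60.7, 47.5 and 61.5 (1.0 ± 0.15, edgeR adjusted p = 0.000647). Atp8b5, a gene of the family of lipid flippases, had 3.43, 4.49 and 4.69 CPM in STAM, 16, 18.2 and 21.8 in treated mice and 1.956, 1.57 and 1.33 in chow (2.15 ± 0.29, edgeR adjusted p = 0.000219), so that treated mice were above both other groups. Ces1c, a carboxylesterase, rose by 0.92 ± 0.12, from 1129, 1235 and 1456 to 2233, 2355 and 2631 CPM.

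Among genes that fell, Serpina12, which encodes the adipokine vaspin, went from 73.3, 87.6 and 73.2 to 32.1, 31.1 and 27.8 CPM, and stood at 114, 218 and 249 in chow (-1.36 ± 0.21, edgeR adjusted p = 0.00115). Rarres1, a retinoid-responsive gene, fell by 1.75 ± 0.29, Neb, nebulin, by 1.37 ± 0.20, and Ddc, the decarboxylase of aromatic amino acids, by 0.86 ± 0.14. Car14, a carbonic anhydrase that overlaps Aph1a on the other strand, fell by 1.12 ± 0.15, and the pseudogene Adh6-ps1 by 1.10 ± 0.18. Meg3, an imprinted noncoding RNA, had 28.3, 11.7 and 21.5 CPM in STAM, 2.81, 4.87 and 3.68 with Atglistatin and 2.26, 0.121 and 1.18 in chow (-2.43 ± 0.46, edgeR adjusted p = 0.00585); it did not pass without STAM replicate 1 or STAM + Atglistatin replicate 4 (adjusted p 0.0525 to 0.0907). The microRNA genes inside Meg3 were not told apart from it.

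Of 22 pericentral genes 3 rose and 2 fell, and of 22 periportal genes 2 fell and 0 rose, both larger shares than the 1.79% of all tested genes that passed, with medians of 0.19 and -0.11. Of 27 genes of protein folding in the endoplasmic reticulum, 1 fell and 0 rose, and of 19 MHC genes 1 rose and 0 fell. Both counts are of a single gene and stand beside the same 1.79%. Of the 27 folding genes, 21 changes were below 0 (median -0.16), with 0 higher and 5 lower at an unadjusted p under 0.05. Of the MHC genes, 1 was higher and 0 lower unadjusted. For 23 clock genes and 20 heat shock genes, 0 passed in edgeR, DESeq2 or limma-voom, with 0 higher and 1 lower, and 0 in either direction, at an unadjusted p under 0.05. For 34 lysosome genes 0 passed in edgeR and 1 was higher in each of DESeq2 and limma-voom, with 2 higher and 3 lower unadjusted. For 16 immediate early genes 0 passed in edgeR and limma-voom and 1 was lower in DESeq2, with 4 lower unadjusted and 14 changes below 0.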
